A study of Rattus norvegicus with 14 samples.

Results

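The highest dose of dicyclohexyl phthalate (DCHP), a phthalate ester plasticizer, was compared with vehicle in fetal rat testis. Libraries were chosen by their labelled dose. They are 2 litters at 900 mg/kg/day and 3 vehicle litters, 5 of the 14 libraries in the series, and 12719 of the 18174 genes in the count table were tested. Harlan Sprague Dawley dams received DCHP in corn oil, or corn oil alone, by daily gavage from gestational day 14 to 18. Male fetuses were taken on gestational day 18 after exposure in utero. The testes of a litter were pooled, apart from those set aside to measure testosterone, so 1 library stands for 1 litter and holds all cell types of the organ. No genotype or Cre line is involved, and dams were assigned to dose groups by body weight. Replicates are numbered in label order and are not paired between groups. RNA was read with TempO-Seq, which joins neighbouring detector probes on each RNA and sequences the joined product.

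Fetal Leydig cells, which lie between the testis cords, take up or make cholesterol, move it into mitochondria and convert it to androgens. The side-chain cleavage enzyme makes pregnenolone from cholesterol, 3-beta-hydroxysteroid dehydrogenase makes progesterone, and Cyp17a1 and Hsd17b3 complete the route to testosterone. The same cells secrete Insl3, the hormone that acts on the gubernaculum during testis descent. Phthalate esters with side chains of intermediate length are known to lower testosterone output of the fetal rat testis.

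The 5 libraries held 7847945 to 11272861 estimated counts, and the tested genes took up 99.9% of all counts. Levels are CPM, counts divided by the library total after scaling by TMM (trimmed mean of M-values). They depend on each probe, so they are compared between litters and not between genes. Log2 CPM correlated at 0.953 to 0.976 between vehicle litters, at 0.981 between the 900 mg/kg/day litters, and at 0.948 to 0.982 across the groups. Vehicle replicate 1 stood apart: on the first principal component of all 14 libraries (36.1% of the variance) it lay at -42.58, beside the 900 mg/kg/day litters (-38.21 and -22.77), while vehicle replicates 2 and 3 lay at 33.29 and 7.251. Testis markers were present in all 5 libraries. Sox9, the transcription factor of Sertoli cells, was at 286 to 419 CPM, and Ddx4, the germ cell RNA helicase, at 444 to 604 CPM. Of the 14 Sertoli markers in the table, Kitlg was at 0 in all 5.

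At 900 mg/kg/day 32 genes (0.252% of those tested) changed, with an adjusted p under 0.05 in edgeR's quasi-likelihood test. Of these, 26 (0.204%) fell and 6 (0.0472%) rose. Genes of cholesterol import, of the first steps of steroid synthesis and of sterol synthesis made up 12 of the 26. They were Star, Scarb1, Stard4, Cyp11a1, Fdx1, Hsd3b3, Cyp17a1, Idi1, Fdft1, Sqle, Msmo1 and Dhcr7. The genes that fell were left at 4.07% to 60.8% of the mean vehicle level, with a median of 37.4%. In this pooled tissue fewer cells of a type and less RNA per cell cannot be told apart. Each of the 32 had both exposed litters beyond all 3 vehicle litters. Such separation was seen in 2436 of all tested genes (19.2%), higher in 10.3% and lower in 8.83%. Across all tested genes the median log2 fold change was 0.02, with 53.1% of values positive and 46.9% negative. Without adjustment 635 genes (4.99%) had a p under 0.05, 271 higher (2.13%) and 364 lower (2.86%). A log2 fold change over 1 was seen in 343 genes (2.7%) and one under -1 in 251 (1.97%).

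**Figure D1:**
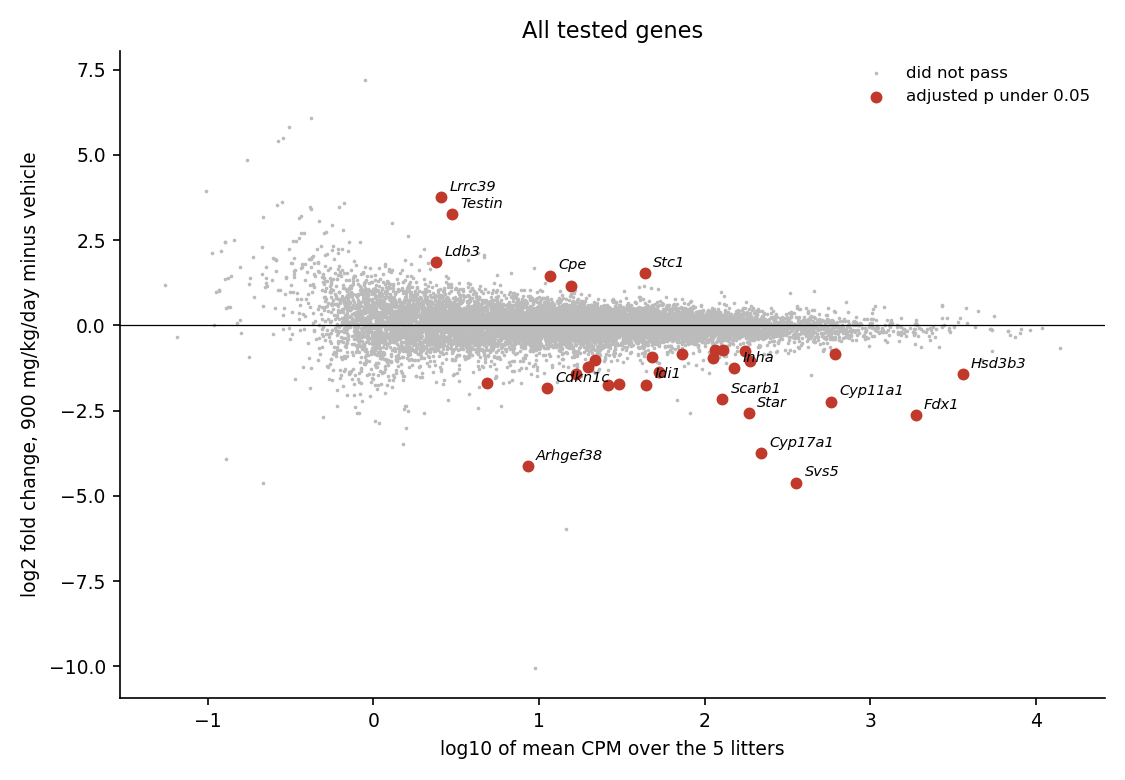
Log2 fold change of 900 mg/kg/day against vehicle (vertical axis) for each of the 12719 tested genes against log10 of the mean CPM over the 5 litters (horizontal axis). The 32 genes that passed are red, 26 below 0 and 6 above it, while grey points are genes that did not pass, some with larger fitted changes.

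These calls rest on few litters. Without 900 mg/kg/day replicate 1 no gene passed in edgeR (339 at an unadjusted p under 0.05), and the lone remaining litter was then assumed to vary like the other groups. Without replicate 2 of that dose 9 genes passed, 7 of them among the 32, and without vehicle replicate 3 there were 15. The 32 calls also use the spread of all dose groups: with only the 5 libraries of the comparison 4 genes passed, Svs5, Fdx1, Star and Scarb1. Without vehicle replicate 1, 48 genes passed, 29 of them among the 32, and 7429 genes had separate litters. With 1 vehicle litter fewer separation is easier to reach, so 7429 is not set against the 2436 of all 5 litters.

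Of 14 tested genes of cholesterol uptake and delivery 3 fell and none rose. Scarb1, the receptor that takes cholesterol ester from HDL, was at 200.6, 191.5 and 165.3 CPM in vehicle replicates 1, 2 and 3 and at 43.97 and 38.90 CPM at 900 mg/kg/day. Star, the protein that carries cholesterol across the mitochondrial membranes, was at 343, 209 and 283 CPM against 45.5 and 47.5 CPM. In both genes the exposed litters lay close together and far below the lowest vehicle litter. The log2 fold change was -2.17 ± 0.26 (SE) for Scarb1, with an adjusted p of 0.00282. It was -2.58 ± 0.30 for Star (adjusted p = 0.00275), which left 16.7% of the vehicle mean. Stard4, a cytosolic sterol carrier, was at 145, 148 and 166 CPM in vehicle and at 96.5 and 88.7 CPM in the exposed litters. Its fall was small, -0.73 ± 0.13 (adjusted p = 0.0419), and its call was lost in 11 of the 14 fits that left out 1 library. Without 900 mg/kg/day replicate 1 or 2 the adjusted p of these 3 genes was 0.0975 to 0.487 and 0.0687 to 0.666, and for Stard4 it was 0.107 without vehicle replicate 2 and 0.192 without replicate 3.

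Other genes of sterol handling did not follow that direction as a group. Of the 14 members 10 had a positive log2 fold change, and the list median was 0.21 (0.08 without vehicle replicate 2 and 0.32 without replicate 1). Abca1, which exports cholesterol from cells, was at 8.84, 6.77 and 7.32 CPM in vehicle and at 12.2 and 14.9 CPM at 900 mg/kg/day. Abcg1, another exporter, was at 17.1, 14.9 and 11.2 CPM against 22.9 and 22.5 CPM. Litters of both genes did not overlap, with log2 fold changes of 0.83 ± 0.23 and 0.65 ± 0.23, and neither passed (adjusted p = 0.334 and 0.754). Tspo, the outer membrane translocator protein (0.29 ± 0.25), and Soat1, which esterifies cholesterol for storage (0.04 ± 0.15), had litters that overlapped.

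Of 15 tested steroid enzymes and electron donors 4 fell and none rose. Both exposed litters lay below all vehicle litters in 7 of the 15, against 8.83% of all tested genes. Negative log2 fold changes numbered 11 of 15 (46.9% of all tested genes), with a list median of -0.66. Without vehicle replicate 1 the median was -0.33. The 4 that fell were Cyp11a1, Fdx1, Hsd3b3 and Cyp17a1.

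Cyp11a1, which cleaves the side chain of cholesterol, was at 696, 1083 and 760 CPM in vehicle and at 136 and 223 CPM at 900 mg/kg/day. Fdx1, the ferredoxin that passes electrons to it, was at 2459, 3491 and 2541 CPM against 406 and 509 CPM. The exposed litters held less than the lowest vehicle litter in both genes, with replicate 2 above replicate 1. Cyp11a1 fell by 2.24 ± 0.31 on the log2 scale (adjusted p = 0.00805) and Fdx1 by 2.63 ± 0.25 (adjusted p = 0.000729), to 21.2% and 16.2% of vehicle. Hsd3b3, a 3-beta-hydroxysteroid dehydrogenase, was at 4104, 5480 and 4909 CPM against 1441 and 2161 CPM, a log2 fold change of -1.42 ± 0.20 (adjusted p = 0.00805). Its near-identical relatives may share reads, and the value is uncertain to that extent. Hsd3b1 had the same log2 fold change on few counts (3.47, 4.68 and 4.11 CPM against 1.20 and 1.80 CPM) and did not pass (adjusted p = 0.105). Reads shared with Hsd3b3 may enter the Hsd3b1 value, so it is not read as a second measurement. Sharing was not tested.

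Cyp17a1, the hydroxylase and lyase that opens the androgen route, lies on chr1:245535462-245541574 of rn7, minus strand. Vehicle replicates held 222.7, 522.9 and 300.0 CPM and the exposed litters 20.6 and 31.5 CPM. Vehicle replicate 2 was the highest, and even the lowest vehicle litter was far above the exposed ones. Its log2 fold change of -3.74 ± 0.51 (adjusted p = 0.00716) left 7.48% of the vehicle mean. Without 900 mg/kg/day replicate 1 the adjusted p of the 4 enzyme genes was 0.0599 to 0.242. Without replicate 2 that of Cyp17a1 was 0.0947, while Cyp11a1, Hsd3b3 and Fdx1 still passed.

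Hsd17b3, which reduces androstenedione to testosterone, was at 280, 292 and 267 CPM in vehicle and at 261 and 290 CPM at 900 mg/kg/day. The litters overlapped, the log2 fold change was -0.02 with a 95% interval of -0.28 to 0.24, and its sign turned with library totals alone (0.0578). Fdxr, which reduces ferredoxin, was at 216, 158 and 138 CPM against 121 and 114 CPM. Cyb5a, the cytochrome that aids the lyase activity of Cyp17a1, was at 163, 243 and 207 CPM against 119 and 139 CPM. Litters of both lay apart and lower, but neither passed (log2 fold change -0.53 ± 0.28 and -0.66 ± 0.21). Pparg, Lipe, Nr4a1 and Srd5a2 were too low for testing.

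**Figure D2:**
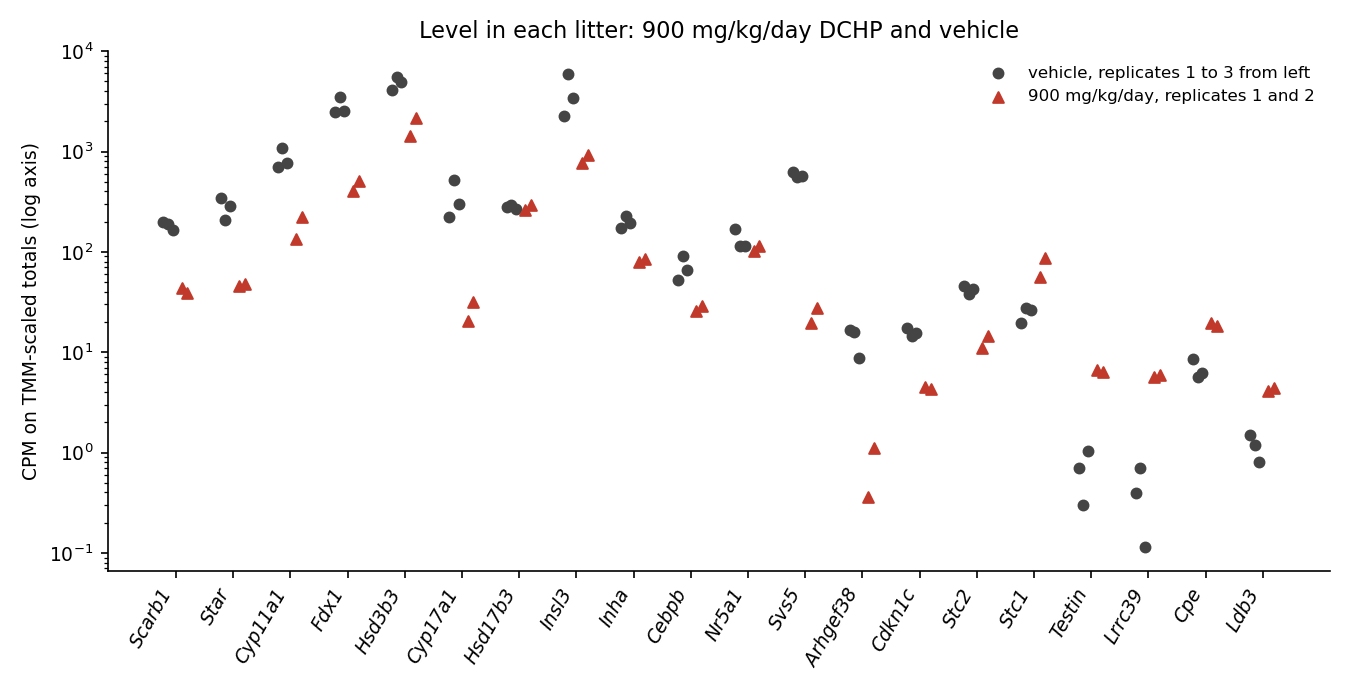
CPM in each litter on a log axis for 20 genes, with vehicle replicates 1 to 3 as grey circles and the 900 mg/kg/day replicates 1 and 2 as red triangles. Triangles lie below all circles for Star, Cyp11a1, Fdx1, Cyp17a1 and Svs5, among the circles for Hsd17b3, and above them for Stc1, Testin, Lrrc39, Cpe and Ldb3.

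Of 15 tested genes of sterol synthesis from acetyl-CoA 5 fell and none rose. In 14 both exposed litters lay below all vehicle litters, against 8.83% of all tested genes. The list median was -1.11, and 1 of the 15 values was positive. Idi1, which isomerizes isopentenyl diphosphate, was at 52.3, 68.4 and 63.6 CPM in vehicle and at 13.6 and 23.0 CPM at 900 mg/kg/day. Sqle, which forms squalene epoxide, was at 222, 241 and 251 CPM against 105 and 125 CPM. Exposed litters lay below every vehicle litter in both, and Idi1 fell by 1.74 ± 0.22 (adjusted p = 0.00347) and Sqle fell by 1.05 ± 0.12 (adjusted p = 0.00275) on the log2 scale.

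Fdft1, squalene synthase, was at 199, 215 and 216 CPM in vehicle and at 119 and 130 CPM in exposed litters. Dhcr7, which acts in the last steps to cholesterol, was at 27.5, 25.0 and 29.4 CPM against 12.9 and 14.1 CPM. Msmo1, which removes methyl groups from the sterol ring, was at 7.35, 6.57 and 6.17 CPM against 1.69 and 2.40 CPM. None of these litters overlapped, and the log2 fold changes were -0.75 ± 0.11, -1.01 ± 0.16 and -1.69 ± 0.30 (adjusted p = 0.0124, 0.0197 and 0.0419). Msmo1 lost its call in 12 of those 14 fits. Without 900 mg/kg/day replicate 1 the adjusted p of the 5 genes was 0.0975 to 0.777. Without replicate 2, or without vehicle replicate 3, Idi1 and Sqle passed and the other 3 did not (adjusted p up to 0.296 and 0.107), and Msmo1 was at 0.0796 without vehicle replicate 1 and 0.108 without replicate 2.

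Cyp51, which removes a methyl group from lanosterol, was at 109, 111 and 157 CPM in vehicle and at 46.5 and 58.0 CPM at 900 mg/kg/day. Its litters lay apart, and it did not pass (-1.26 ± 0.42), nor did the synthase Hmgcs1, an early step of the pathway (-1.65 ± 0.52). Among sterol sensors Insig1, which holds the sterol regulatory factors in the endoplasmic reticulum, was at 390, 722 and 664 CPM against 196 and 235 CPM. Its litters lay apart without a call (-1.46 ± 0.28, adjusted p = 0.0576), and it passed without vehicle replicate 1 (0.00887) and in DESeq2 (0.000276). Srebf2, the factor that drives sterol synthesis genes, was at 210 to 288 CPM in vehicle and at 187 and 228 CPM, with overlapping litters (-0.24 ± 0.16). The 9 sensing genes had a median of -0.01 and no call in edgeR with all libraries.

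**Figure D3:**
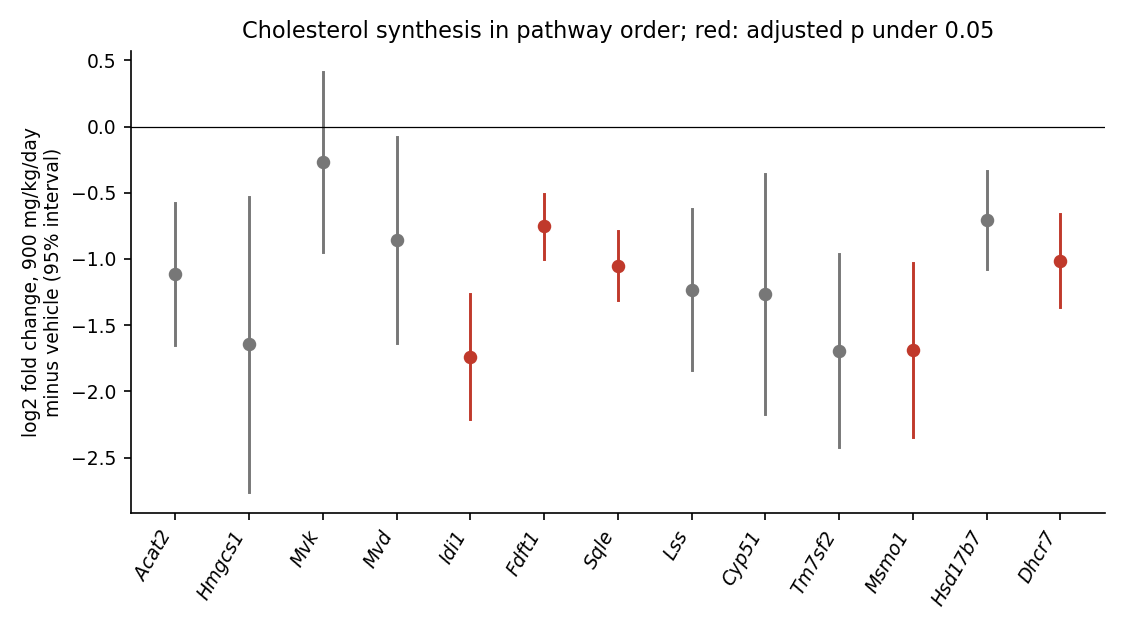
Log2 fold change of 900 mg/kg/day against vehicle with its 95% interval for 13 of the cholesterol synthesis genes, ordered along the pathway from Acat2. Red points passed; these 13 points lie below 0, while 1 of the 15 tested genes, not drawn, was positive, and Idi1, Fdft1, Sqle, Msmo1 and Dhcr7 are the ones that passed.

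Promoters of 4 genes that fell are shown, Cyp11a1 and Fdx1 for steroid synthesis, Idi1 for sterol synthesis and Svs5, a seminal vesicle secretory protein gene described further on, for its match to the motif searched. Sequences are from RefSeq on GRCr8, a later build than the rn7 of the count table, and run from 250 bases before the start of the gene to 50 bases after it, 5′ to 3′ on the gene's own strand. Cyp11a1 lies at chr8:67318415-67318714 (plus strand), Fdx1 at chr8:61183596-61183895 (minus), Idi1 at chr17:66547475-66547774 (minus) and Svs5 at chr3:173415271-173415570 (plus). Capitals mark a match to AAGGTCA, a short motif bound by steroidogenic factor 1.
Cyp11a1: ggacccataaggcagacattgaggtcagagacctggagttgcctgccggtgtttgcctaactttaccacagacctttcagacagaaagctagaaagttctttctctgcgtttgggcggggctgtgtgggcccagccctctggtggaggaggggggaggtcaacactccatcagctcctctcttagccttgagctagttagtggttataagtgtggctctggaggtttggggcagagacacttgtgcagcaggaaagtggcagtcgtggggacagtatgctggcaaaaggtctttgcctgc
Fdx1: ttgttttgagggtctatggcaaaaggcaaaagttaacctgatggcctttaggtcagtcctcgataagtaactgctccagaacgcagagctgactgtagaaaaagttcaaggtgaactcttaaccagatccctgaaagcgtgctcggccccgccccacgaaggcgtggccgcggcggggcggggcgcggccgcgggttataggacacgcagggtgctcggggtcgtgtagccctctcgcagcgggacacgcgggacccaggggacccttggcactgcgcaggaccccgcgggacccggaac
Idi1: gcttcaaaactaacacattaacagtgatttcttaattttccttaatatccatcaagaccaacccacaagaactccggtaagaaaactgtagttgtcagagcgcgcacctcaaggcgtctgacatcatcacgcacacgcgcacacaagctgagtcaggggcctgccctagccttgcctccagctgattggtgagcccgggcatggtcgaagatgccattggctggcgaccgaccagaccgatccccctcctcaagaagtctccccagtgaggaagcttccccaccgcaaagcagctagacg
Svs5: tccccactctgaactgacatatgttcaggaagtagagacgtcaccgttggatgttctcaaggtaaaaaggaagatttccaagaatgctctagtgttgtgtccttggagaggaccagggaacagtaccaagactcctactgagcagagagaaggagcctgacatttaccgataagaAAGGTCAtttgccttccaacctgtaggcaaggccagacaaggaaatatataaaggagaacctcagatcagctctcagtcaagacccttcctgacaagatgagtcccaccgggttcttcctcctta
Of the 30 genes that passed and carry a symbol, 20 had a promoter in the table, 16 that fell and 4 that rose. Star, Scarb1, Stard4, Cyp17a1, Fdft1 and Sqle had none there, so neither motif was searched in these steroid and sterol genes. AAGGTCA, searched on both strands, was in 2 of the 16 (12.5%), Svs5 and Ccnb3, in 0 of the 4, and in 4.61% of all 33469 promoters. In Svs5 it covers bases 176 to 182 of the printed sequence, 75 bases before the start. TCACNCCAC, a form of the sterol regulatory element, was in none of the 20 and in 1.12% of all promoters. For the genes that passed 1 promoter per symbol was searched, while the 33469 were not limited to 1 per symbol or to tested genes. The shares thus count different units. A match describes letters in this window and nothing about binding.

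Among the other Leydig cell genes 1 of 6 tested fell, with a list median of -1.30. In 5 both exposed litters lay below all vehicle litters, against 8.83% of all tested genes. Inha, the alpha subunit of inhibin, was at 172, 226 and 192 CPM in vehicle and at 80.1 and 84.0 CPM at 900 mg/kg/day. It fell by 1.26 ± 0.17 on the log2 scale (adjusted p = 0.00716). Insl3 was at 2275, 5869 and 3444 CPM against 775 and 915 CPM. Vehicle replicate 2 was the highest and vehicle replicate 1 the lowest of its group, and all 3 lay above the exposed litters. With a log2 fold change of -2.19 ± 0.47 Insl3 did not pass in edgeR (adjusted p = 0.108); it passed without vehicle replicate 1 (0.0440) and in DESeq2 (0.000266). Lhcgr, the receptor for luteinizing hormone, was at 2.78, 3.28 and 4.92 CPM against 1.08 and 1.29 CPM (-1.60 ± 0.49), and Prlr, the prolactin receptor, at 40.6, 24.3 and 24.9 CPM against 12.4 and 11.3 CPM (-1.34 ± 0.41). Neither passed. Dlk1, a membrane protein of fetal Leydig and stromal cells, was at 124 to 141 CPM in vehicle and at 152 and 147 CPM.

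Of 14 transcription factors of steroidogenic cells 1 fell, and the median was -0.01. Cebpb, a basic leucine zipper factor, was at 52.8, 92.0 and 65.8 CPM in vehicle and at 25.8 and 28.8 CPM at 900 mg/kg/day, a fall of 1.36 ± 0.22 on the log2 scale (adjusted p = 0.0211). Nr5a1, which encodes steroidogenic factor 1, was at 168, 114 and 115 CPM against 103 and 114 CPM. Its litters overlapped (-0.29, 95% interval -0.79 to 0.22). Gata4, a factor of somatic gonadal cells, was at 11.3 to 21.1 CPM in vehicle and 25.1 and 21.7 CPM, without a call (0.59 ± 0.39). Without 900 mg/kg/day replicate 1 Inha and Cebpb were at an adjusted p of 0.219 and 0.487, without replicate 2 at 0.111 and 0.247, and Cebpb was at 0.0707 without vehicle replicate 3.

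Markers of the other cell types of the organ had medians between -0.61 and 0.35, and no gene of these lists passed in edgeR. The summed level of the 14 Sertoli markers in the table was 1356 to 1589 CPM in vehicle and 1332 and 1537 CPM at 900 mg/kg/day. Of 12 tested Sertoli markers 7 had a positive and 5 a negative value. Amh was at 95.9, 220 and 148 CPM in vehicle and at 117 and 111 CPM at the dose, with overlapping litters (-0.44 ± 0.29). Litters were separate in Sox9 (0.29 ± 0.12) and Ptgds (0.44 ± 0.38), above vehicle, and in Cldn11 (-0.39 ± 0.23), below it. Germ cell markers (16 genes) summed to 1292 to 1562 CPM against 1412 and 1492 CPM. Macrophage markers (11) came to 61.2 to 62.6 CPM against 64.3 and 66.0 CPM, and endothelial markers (10) to 382 to 450 CPM against 439 and 446 CPM. Germ cell and endothelial sums lay within the vehicle range, 1 Sertoli sum lay below it, and both macrophage sums lay above it. Of 9 tested endothelial markers 5 had a positive and 4 a negative value. In 3 the litters were separate above vehicle and in 0 below it, against 10.3% and 8.83% of all tested genes. The 3 were Pecam1 (0.59 ± 0.22), Tek (0.46 ± 0.19) and Eng (0.63 ± 0.28), without a call. Steroid enzymes (16 genes in the table) summed to 8256 to 11349 CPM in vehicle and to 2596 and 3553 CPM at the dose. Both exposed litters lay far below the vehicle range. Most of this sum came from Hsd3b3 (4104 to 5480 CPM in vehicle) and Fdx1 (2459 to 3491 CPM), which are among the genes that passed. The sum thus largely repeats their falls and is not a result of the whole list.

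Peritubular myoid markers lay somewhat higher, with 10 of 11 positive values, a median of 0.35 and sums of 407 to 487 CPM in vehicle against 492 and 581 CPM. Acta2, smooth muscle actin, was at 109, 153 and 129 CPM against 142 and 189 CPM, with overlapping litters. The 1 negative value was that of Actg2, at 3.77, 4.58 and 4.69 CPM against 1.57 and 3.01 CPM (-0.90 ± 0.45), with separate litters. Interstitial progenitor markers summed to 9750, 6487 and 6732 CPM in vehicle replicates 1, 2 and 3 and to 9893 and 8935 CPM at the dose. The overlap thus comes from vehicle replicate 1. Each sum includes Col3a1, whose levels are given further on. Of 15 tested, 12 had a positive and 3 a negative value, with a median of 0.08. Ptch1, the hedgehog receptor and a target of that pathway, was at 384, 373 and 364 CPM in vehicle and at 499 and 502 CPM, without overlap and without a call in edgeR (0.42 ± 0.10, adjusted p = 0.182, and 0.0119 in DESeq2). Hhip, another hedgehog target, was at 5.26, 2.99 and 1.49 CPM against 6.50 and 7.30 CPM (1.08 ± 0.37). Pdgfrb of the same list was lower, at 9.63, 20.4 and 13.7 CPM against 7.71 and 11.2 CPM (-0.61 ± 0.29), with overlapping litters. Erythroid markers were negative in 10 of 10 genes, with a median of -0.61. Without vehicle replicate 1 they were negative in 6 of 10, with a median of -0.10, and without 900 mg/kg/day replicate 2 the median was -0.30. Their sum was 18430 CPM in vehicle replicate 1, 8838 and 10206 CPM in vehicle replicates 2 and 3, and 9410 and 6200 CPM at the dose. Whether blood content has a part in any result above was not tested.

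Markers of tissues outside the testis are given as levels only, since levels depend on each probe and their sums do not measure amounts of tissue. Liver markers summed to 2.29 to 7.84 CPM in vehicle and 6.87 and 4.72 CPM at the dose. Adrenal markers summed to 8.34 to 10.3 CPM in vehicle and to 6.87 and 5.24 CPM. Mrap, the accessory protein of the ACTH receptor, was at 1.69, 4.58 and 2.86 CPM against 0.482 and 0.515 CPM (-2.57 ± 0.68, adjusted p = 0.282). Skeletal muscle markers summed to 221 to 242 CPM against 241 and 233 CPM.

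**Figure D4:**
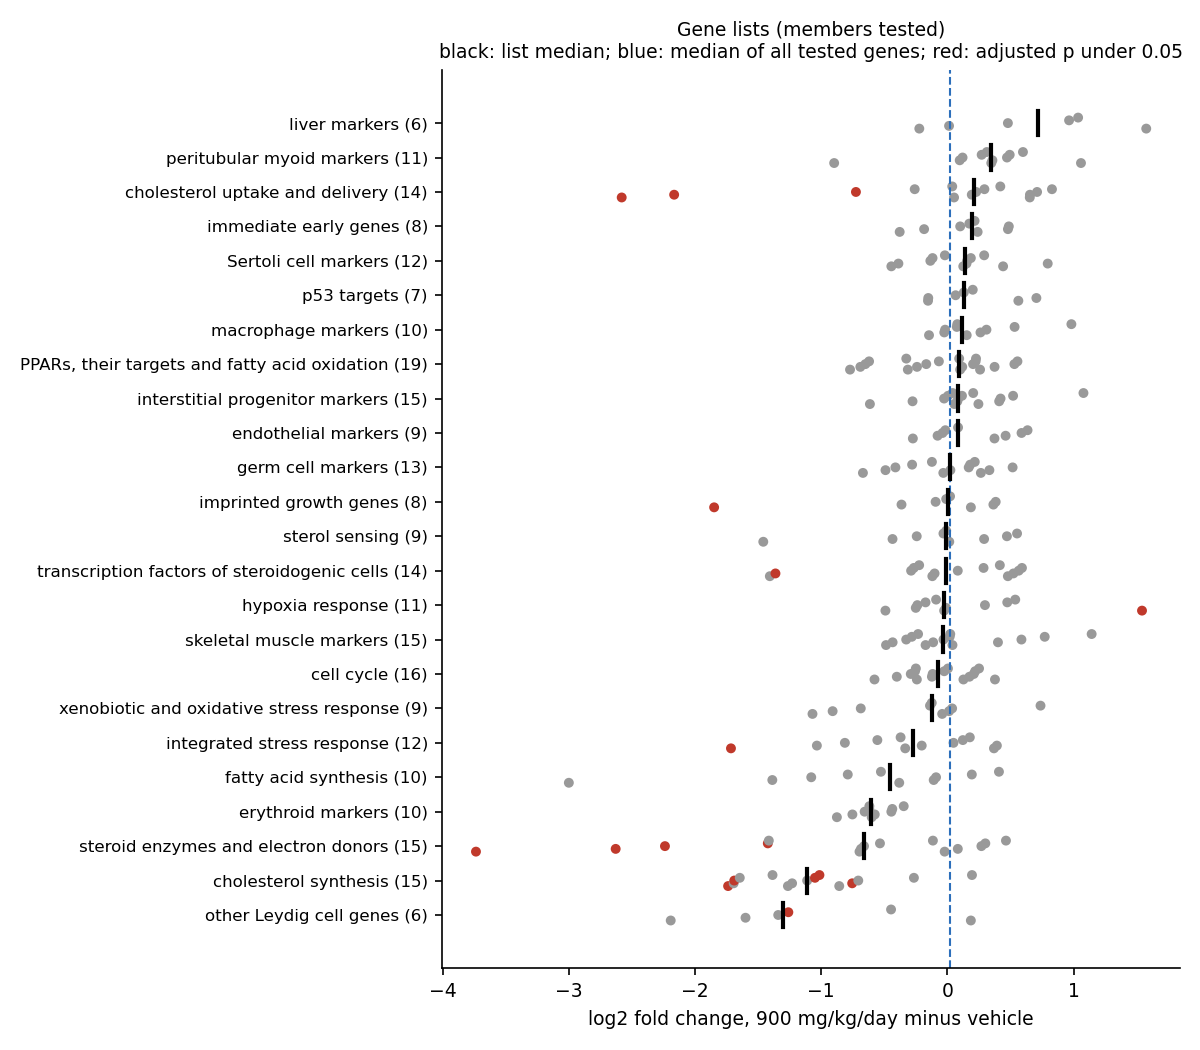
Log2 fold change of each tested gene in 24 lists (points), with each list's median as a black bar and the median of all tested genes as a dashed blue line; red points passed. The bars for cholesterol synthesis (-1.11) and other Leydig cell genes (-1.30) lie farthest to the left, while the Sertoli bar lies at 0.14.

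Among the 26 genes that fell the level lowest relative to vehicle was that of Svs5, a seminal vesicle secretory protein gene on chr3:152996146-152997757 of rn7. It was at 620, 554 and 573 CPM in vehicle and at 19.6 and 27.8 CPM at 900 mg/kg/day, on 6244, 5570 and 5012 against 163 and 324 counts. The vehicle litters were close to each other and the exposed litters held 4.07% of their mean (-4.61 ± 0.45, adjusted p = 0.000729). Arhgef38, a guanine nucleotide exchange factor gene, was at 16.5, 15.9 and 8.80 CPM against 0.361 and 1.12 CPM. The exposed litters gave only 3 and 13 counts, with a log2 fold change of -4.12 ± 0.61 (adjusted p = 0.0120).

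Cdkn1c, a cyclin-dependent kinase inhibitor and the only 1 of 8 tested imprinted growth genes to change, was at 17.4, 14.4 and 15.5 CPM in vehicle and at 4.46 and 4.29 CPM at the dose. It fell by 1.85 ± 0.21 on the log2 scale (adjusted p = 0.00275). Igf2, the imprinted growth factor, was at 338, 394 and 308 CPM against 329 and 321 CPM, with overlapping litters. No gene of the cell cycle list passed, and 0 of 16 had separate litters, against 19.2% of all tested genes. Mki67, a marker of dividing cells, was at 507 to 558 CPM in vehicle and at 542 and 500 CPM. Outside that list Ccnb3, a B-type cyclin, fell from 29.0, 43.8 and 36.4 CPM to 8.79 and 12.8 CPM (-1.74 ± 0.32, adjusted p = 0.0419). Its call was lost in 11 of the 14 fits that left out 1 library. Crabp2, a carrier of retinoic acid, was at 720, 764 and 760 CPM against 397 and 437 CPM. Its fall of 0.84 ± 0.13 had an adjusted p of 0.0127.

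Of the other falls, Pcyt2, which acts in phosphatidylethanolamine synthesis, was at 134, 135 and 144 CPM against 80.8 and 86.9 CPM (-0.72 ± 0.12). Slc41a3, a magnesium transporter gene, was at 26.7, 29.3 and 20.7 CPM against 11.0 and 11.2 CPM (-1.21 ± 0.20). Rab33a, a small GTPase gene, was at 23.4, 24.2 and 19.7 CPM against 7.71 and 9.10 CPM (-1.41 ± 0.26). Reep6, an endoplasmic reticulum protein gene (-0.94 ± 0.16), Cplx2, a regulator of vesicle fusion (-0.83 ± 0.15), and the unnamed ENSRNOG00000052572 on chromosome X (-0.96 ± 0.17) also fell. The adjusted p of these 6 genes lay between 0.0197 and 0.0419. Of the 14 fits that left out 1 library, 12 lost the call of Rab33a and 11 those of Cplx2 and ENSRNOG00000052572. Of the 12 falls outside steroid, sterol and Leydig genes, Stc2 included, Svs5 alone passed without 900 mg/kg/day replicate 2, and none passed without replicate 1 (adjusted p 0.0599 to 0.777). Without vehicle replicate 2 or 3, 6 and 5 of the 12 passed.

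The stanniocalcins, secreted glycoprotein hormones, moved in opposite directions. Stc2, placed among genes of the integrated stress response, was at 45.6, 38.2 and 42.2 CPM in vehicle and at 11.0 and 14.5 CPM at 900 mg/kg/day. Stc1, placed among hypoxia response genes, was at 19.7, 27.9 and 26.5 CPM against 55.7 and 87.8 CPM. Litters were separate in both. Stc2 fell by 1.72 ± 0.27 and Stc1 rose by 1.54 ± 0.25 on the log2 scale, each with an adjusted p of 0.0197. Each was the only gene of its list to change, of 12 and 11 tested: Ddit3, a stress-induced transcription factor, was at 22.1 to 36.4 CPM in vehicle and 20.6 and 26.9 CPM, and Vegfa, a growth factor induced by low oxygen, at 65.1 to 87.4 CPM against 59.1 and 71.6 CPM.

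Among the rises Testin, a protein of Sertoli cells related to cathepsins, was at 0.695, 0.299 and 1.03 CPM in vehicle and at 6.63 and 6.35 CPM at the dose. These levels come from 7, 3 and 9 counts against 55 and 74 counts. Lrrc39, a sarcomere protein gene, was at 0.397, 0.697 and 0.114 CPM against 5.66 and 5.93 CPM, on 4, 7 and 1 against 47 and 69 counts. Both were low in all vehicle litters, with log2 fold changes of 3.26 ± 0.40 (adjusted p = 0.00282) and 3.77 ± 0.61 (adjusted p = 0.0209). Ldb3, a protein of the muscle Z-disc, was at 1.49, 1.19 and 0.800 CPM against 4.10 and 4.38 CPM (1.85 ± 0.34). The skeletal muscle markers had no call and a median of -0.03. Cpe, carboxypeptidase E, which trims prohormones, was at 8.64, 5.67 and 6.17 CPM against 19.4 and 18.2 CPM (1.46 ± 0.25, adjusted p = 0.0308). The sixth rise was ENSRNOG00000014851 on chromosome 9, which has no symbol in the table (1.15 ± 0.21). The calls of Ldb3, ENSRNOG00000014851 and Cpe were lost in 11, 10 and 8 of the 14 fits that left out 1 library. Testin alone of the 6 passed without 900 mg/kg/day replicate 2 or without vehicle replicate 3, none passed without 900 mg/kg/day replicate 1 (adjusted p 0.0599 to 0.466), 3 passed without vehicle replicate 2, and Lrrc39 was at 0.0530 without vehicle replicate 1.

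Cpe and Msmo1 were the only pair among the 32 within 100 kb of each other. Cpe lies at chr16:25030276-25142234 and Msmo1 at chr16:24980697-24998017 of rn7, both on the plus strand and 32.3 kb apart, and they moved in opposite directions.

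Of 19 tested PPARs, targets and fatty acid oxidation genes none passed in edgeR. Litters were separate above vehicle in 1 and below it in 5, against 10.3% and 8.83% of all tested genes. The median of 0.09 had no stable sign, at -0.09, -0.03, -0.02 and -0.05 without vehicle replicate 1, 2 or 3 or 900 mg/kg/day replicate 1. Fabp3, a fatty acid binding protein gene, was at 727, 505 and 624 CPM in vehicle and at 374.5 and 391.8 CPM at the dose (-0.69 ± 0.16, adjusted p = 0.147, and 0.00397 in DESeq2). Ppara, the receptor itself, was at 1.94 to 2.48 CPM against 2.53 and 2.06 CPM. Fatty acid synthesis genes had a median of -0.45, with 8 of 10 negative values and no call in edgeR. Of the 10, 5 had separate litters below vehicle, against 8.83% of all tested genes. Elovl6, a fatty acid elongase, was at 134, 196 and 166 CPM against 101 and 90.0 CPM (-0.79 ± 0.18), and Fads1, a desaturase, at 9.23, 20.2 and 13.4 CPM against 5.30 and 5.58 CPM (-1.39 ± 0.35). Elovl6 passed without vehicle replicate 1 (adjusted p = 0.0487), and both passed in DESeq2 (0.0193 and 0.0273). Hmox1, heme oxygenase 1, was at 114, 210 and 157 CPM against 83.6 and 87.1 CPM (-0.91 ± 0.28, adjusted p = 0.498). No gene of the xenobiotic (9 tested), p53 (7) or immediate early (8) lists passed.

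Some genes had separate litters and an unadjusted p under 0.001 in edgeR but did not pass there. With a mean count of at least 20, 32 were lower and 2 higher. The largest differences among the lower were Sfrp4, a secreted inhibitor of Wnt signalling (-2.20 ± 0.50), Insl3, Vwc2 (-1.80 ± 0.39), Tm7sf2, a sterol reductase (-1.69 ± 0.34), Nppc, the precursor of C-type natriuretic peptide (-1.59 ± 0.35), and Car1, a carbonic anhydrase (-1.51 ± 0.35). Sfrp4 varied most in vehicle, at 118, 32.3 and 146 CPM against 23.5 and 19.7 CPM. The higher ones were Grb14, a receptor adaptor gene, at 4.96, 2.29 and 4.23 CPM against 11.2 and 11.2 CPM (1.54 ± 0.35), and Fzd9, a Wnt receptor gene, at 6.55, 6.47 and 6.40 CPM against 11.6 and 10.3 CPM (0.75 ± 0.18). DESeq2 called the 8 genes named here except Fzd9 (adjusted p 0.000266 to 0.0120, and 0.0983 for Fzd9). In edgeR Tm7sf2 (0.00933) and Nppc (0.0167) also passed without vehicle replicate 1, and Sfrp4 (0.00429) without vehicle replicate 2.

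The 600 mg/kg/day group (3 litters, same schedule) is the nearest dose, and both doses are read against the same 3 vehicle litters. At that dose 28 genes (0.22%) passed. Median log2 fold change of the 26 genes that fell at 900 mg/kg/day was -1.42 at that dose and -1.07 at 600 mg/kg/day. Mean level at 900 was below the mean at 600 mg/kg/day for 24 of the 26, and below every 600 mg/kg/day litter for 10, against 20.4% of all tested genes. The 26 were chosen for low values in these same 900 mg/kg/day litters, which favours a lower level than at 600 mg/kg/day, so nothing is read from these counts and medians. A direct test of 900 against 600 mg/kg/day called 0 of 12719 genes in edgeR, with 1058 (8.32%) at an unadjusted p under 0.05, and 8 genes in DESeq2. With only the 600 and 900 mg/kg/day libraries in the fit edgeR called 2143 genes. In edgeR with all 14 libraries 8 of the 32 genes had an unadjusted p under 0.05 between these doses, under the same limit of selection.

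Distances between the doses are described here for single genes of the 32, under the same limit of selection. In edgeR with all libraries the adjusted p of this difference was 0.508 for Svs5, Cyp17a1 and Cpe. Svs5 was at 109, 77.6 and 31.6 CPM at 600 mg/kg/day, all above the 19.6 and 27.8 CPM of the higher dose (difference -1.62 ± 0.39, unadjusted p = 0.00113). Cyp17a1 was at 107, 72.9 and 57.0 CPM, also above both litters of the higher dose (-1.60 ± 0.47, unadjusted p = 0.00441). Cpe was at 8.0, 13.1 and 10.4 CPM, below them (0.85 ± 0.25, unadjusted p = 0.00495). Star was at 54.8, 55.5 and 33.8 CPM, and its litters overlapped between the doses, with a difference of -0.05 ± 0.28. Scarb1 (-0.04 ± 0.25), Stc2 (0.00 ± 0.26) and Stc1 (-0.04 ± 0.25) had differences smaller than their errors, which does not show that the doses act alike. Erythroid markers had a median of 0.65 at 600 mg/kg/day and -0.61 at 900 mg/kg/day, both against vehicle and without a call, and the latter was -0.10 without vehicle replicate 1.

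**Figure D5:**
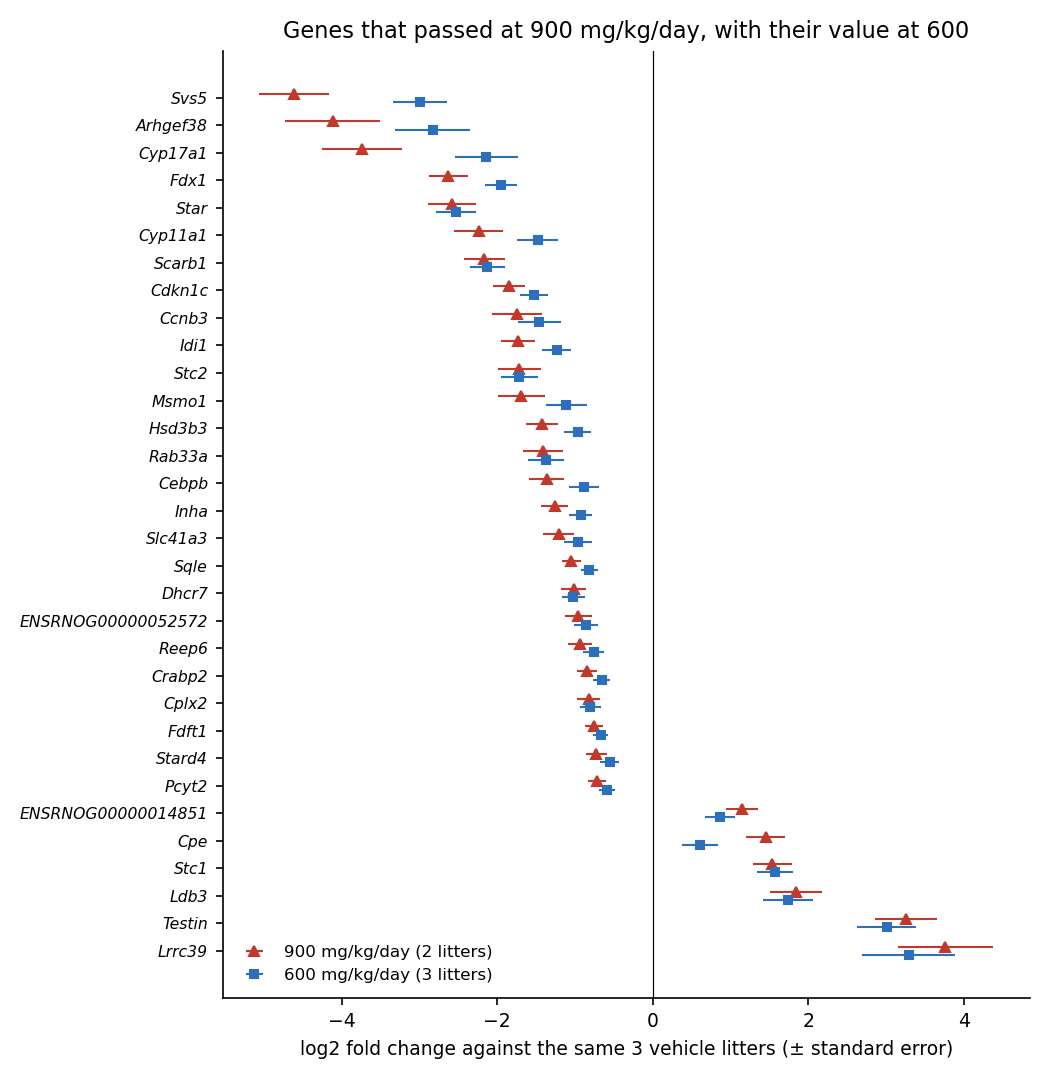
Log2 fold change against the same 3 vehicle litters, with its standard error, of each of the 32 genes that passed at 900 mg/kg/day (red triangles, 2 litters) and its value at 600 mg/kg/day (blue squares, 3 litters). The symbols coincide for Star, Scarb1 and Stc2 and lie apart for Svs5, Cyp17a1 and Cpe.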

How the data were processed

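Gene-level estimated counts were used as deposited by the authors, with no attenuation adjustment; 83.6% are whole numbers (tolerance 1e-09), and all were rounded before testing. The counting tool is not given in the sources used here; the submitters' processing notes name STAR 2.7.8a, Partek, DESeq2 and build rn7 without roles. The deposited log2 CPM table was not used. One edgeR 4.0.16 (R 4.3.3) quasi-likelihood model was fitted to all 14 libraries (filterByExpr on dose groups, TMM, robust dispersion, 9 residual degrees of freedom, biological coefficient of variation 0.232), and p-values were two-sided and adjusted by Benjamini-Hochberg over 12719 genes; 5455 genes were left out. Intervals are 95%. The script was tested on simulated data. Litters are the replicates. Alternatives were RLE or unscaled totals, other filters, adjusted counts, non-robust fits, DESeq2 1.42.0, limma 3.58.1 voom, fewer libraries and leaving out each library.

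Members and lists were chosen with earlier results of these data known. Named genes were drawn from those that passed and carry a symbol, a fixed panel and up to 4 members per list with the smallest p. Up to the 6 largest differences each way that did not pass were added (mean count of at least 20, unadjusted p under 0.001, separate litters). Not all of the list members chosen by p are given. Other genes were named after their values were seen, as were identifiers without a symbol. 1387 tested genes carry only an identifier. Values of some genes of the sterol lists are not reported here; the list counts include them.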

Additional observations from a re-analysis of the deposited data

How the results depend on the processing

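No paired analysis was possible because replicate numbers are absent from the labels. Against vehicle the count of 32 became 86 with DESeq2 (11 rose and 75 fell, all 32 included), 4 with only the 5 libraries compared, and 2102 (962 rose and 1140 fell, all 32 included) when vehicle replicate 1 and 100 mg/kg/day replicate 1 were both left out; the cause was not tested. Leaving out 1 library at a time gave 0 to 50 genes, the lowest without 900 mg/kg/day replicate 1 and the highest without 100 mg/kg/day replicate 1. All 32 calls were lost without 900 mg/kg/day replicate 1, 25 without replicate 2, and 3, 11 and 17 without vehicle replicates 1, 2 and 3. Of the 32, 7 lost their call only without 900 mg/kg/day replicate 1, and 9 lost it in 8 or more of the 14 fits. RLE scaling (35), no filter (28), a mean count of at least 20 (35), voom (32, 29 of them shared), a fit that was not robust (32) and attenuation-adjusted counts (32) stayed within 1.5 times. Library totals alone gave 26, of which 73.1% fell against 81.2%, and put the median log2 fold change of all genes at 0.10 against 0.02. Between 600 and 900 mg/kg/day 2143 genes passed with only those 5 libraries (1074 higher and 1069 lower) and 8 in DESeq2. In the fit of the whole series that count was 0, and it was 0 when 1 of the 5 libraries was left out of that fit (286 to 820 at an unadjusted p under 0.05); fits of fewer than those 5 libraries were not run. Genes with separate litters numbered 7429 without vehicle replicate 1 and 3378 to 3457 without vehicle replicate 3 or 2. Separation is easier to reach with 1 vehicle litter fewer, so these counts are not set against that of all 5 litters. Signs turned for Ppara without 900 mg/kg/day replicate 1 (-0.0444) and for Hsd17b3 with library totals (0.0578), no filter (0.0035), without vehicle replicate 2 (0.00886) and without 900 mg/kg/day replicate 1 (0.06323), all without a call; over the fits without 1 library Ppara ranged from -0.0444 to 0.2405 and Hsd17b3 from -0.09915 to 0.06323. List medians near 0 had no stable sign over the fits without 1 of the 5 libraries, from -0.03 to 0.19 for transcription factors, -0.10 to 0.04 for sterol sensing and -0.18 to 0.21 for skeletal muscle markers. With 2 litters at the dose, small differences and genes of few counts, such as Arhgef38 and Lrrc39, are measured with low precision.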

Other observations

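Several genes that did not pass had vehicle replicate 1 at the level of the exposed litters; they are named after their values were seen. Col3a1, a fibrillar collagen gene, was at 5323 CPM in vehicle replicate 1, at 1755 and 2676 CPM in vehicle replicates 2 and 3, and at 5144 and 4180 CPM at 900 mg/kg/day. Lipa, the lysosomal acid lipase gene, was at 37.6 CPM in vehicle replicate 1, 11.4 and 18.2 CPM in the other vehicle litters and 37.7 and 35.7 CPM at the dose. Scap, the escort protein of the sterol regulatory factors, was at 51.8, 8.76 and 13.1 CPM in vehicle against 44.0 and 28.3 CPM. Mest, an imprinted gene, was at 786, 406 and 448 CPM against 753 and 672 CPM. Leaving vehicle replicate 1 out raised the number of genes at an unadjusted p under 0.05 from 635 (4.99%) to 1836, and the number that passed from 32 to 48, of which 29 were among the 32.

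Among the 26 genes that fell, vehicle replicate 1 was the lowest vehicle litter in 14 and vehicle replicate 2 the highest in 14. Replicate 2 of 900 mg/kg/day was above replicate 1 in 21 of the 26. The median absolute log2 ratio between the 2 exposed litters was 0.13 over the 32 genes and 0.21 over all tested genes. The 32 were chosen by a test that favours a small spread within groups, so nothing is read from this difference. For the counts of litter order, no share over all tested genes was taken.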
